A study of Mus musculus with 12 samples.

Results

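The 10 core genes of the circadian clock were followed in mouse retina 7 days after nanoparticles had been injected into the eye: Arntl (also Bmal1) and Clock, Per1, Per2 and Per3, Cry1 and Cry2, Nr1d1 and Nr1d2, and Dbp. They were taken as all non-control probes whose accession maps to these symbols, which gave 11 of 39429 probes. Dbp had 2 probes and the other genes 1 each, and all 10 genes were among the 23237 tested. All 11 probes were well above background in both channels on all 12 arrays.

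Male C57BL/6 mice, 5 weeks old, had received in the right eye gold particles of 20 nm, gold particles of 100 nm, silicate particles of 20 nm, silicate particles of 100 nm, or phosphate-buffered saline (PBS), each as an intravitreal injection, that is, into the gel of the eye. Tubes held 4 retinas each and groups 12 mice, so a group comes to 3 tubes. Every two-colour Agilent array set a particle tube in Cy5 against PBS-injected retina in Cy3, and dyes were not exchanged. Sizes stand in nM in the sample labels and in nm, as diameters, in the protocol, whose unit is kept. The strain label of the PBS channel reads C57BL/7 to C57BL/12 on the silicate arrays, while the study's design names C57BL/6 alone. The time of day at which the retinas were taken, and the lighting schedule of the mice, are not given in the sources used here.

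The clock is a feedback loop of transcription. ARNTL and CLOCK form a dimer that binds E-boxes and switches on the Per, Cry and Nr1d genes and Dbp. PER and CRY proteins return to the nucleus and block the dimer, the nuclear receptors NR1D1 and NR1D2 (REV-ERBs) repress Arntl, and the factor DBP acts on D-boxes in clock output genes. In the mouse retina the loop runs in several classes of neurons and shapes daily changes in light sensitivity, dopamine and melatonin, and in many tissues Arntl transcripts peak about when Per and Dbp transcripts are low.

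All values are log2 ratios of a particle tube over PBS, above 0 where the particle side was brighter, or levels as normalized log2 intensity. Levels are compared here only within a probe, or within the same list of markers. The 3 slides carried replicates 1, 2 and 3, with 1 array of each particle group per slide, so slide and replicate number are the same thing. Rod markers were bright, with all 10 listed genes well above background on all arrays. The arrays differed in markers of other cells. For marker lists the level is the log2 of the summed intensities, in which the brightest probes weigh most. For the 9 macrophage and microglia markers tested, of 10 listed, it was 14.04 to 15.57 in the particle tubes of slide 1 against 17.48 to 17.58 in PBS. On slide 2 it was 13.59 to 14.59 against 13.27 to 13.34. On slide 3 it was 13.38 and 13.77 in the gold tubes and 18.19 and 18.50 in the silicate tubes, against 14.16 to 14.37 in PBS. Median log2 ratios of the 10 rod markers were -0.87 and -0.93 on the silicate arrays of slide 3 and -0.03 to 0.65 on the other 10 arrays. Median log2 ratios of the 9 pigment epithelium and melanocyte markers tested, of 10 listed, were 1.43 to 3.05 on slide 1, 0.23 to 1.68 on slide 2 and -0.39 to 0.77 on slide 3. Those of the 7 lens markers ran from -2.12 to 3.70, with 3.70 and 3.38 on the gold and silicate 100 nm arrays of slide 1. Slide 1 is also where Arntl, Cry2, Nr1d1, Nr1d2 and Dbp were above PBS on all 4 arrays, as were 31.5% of all genes, and the part of these markers in that was not tested. In pooled tissue, fewer cells of a type and less RNA per cell cannot be told apart.

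**Figure D1:**
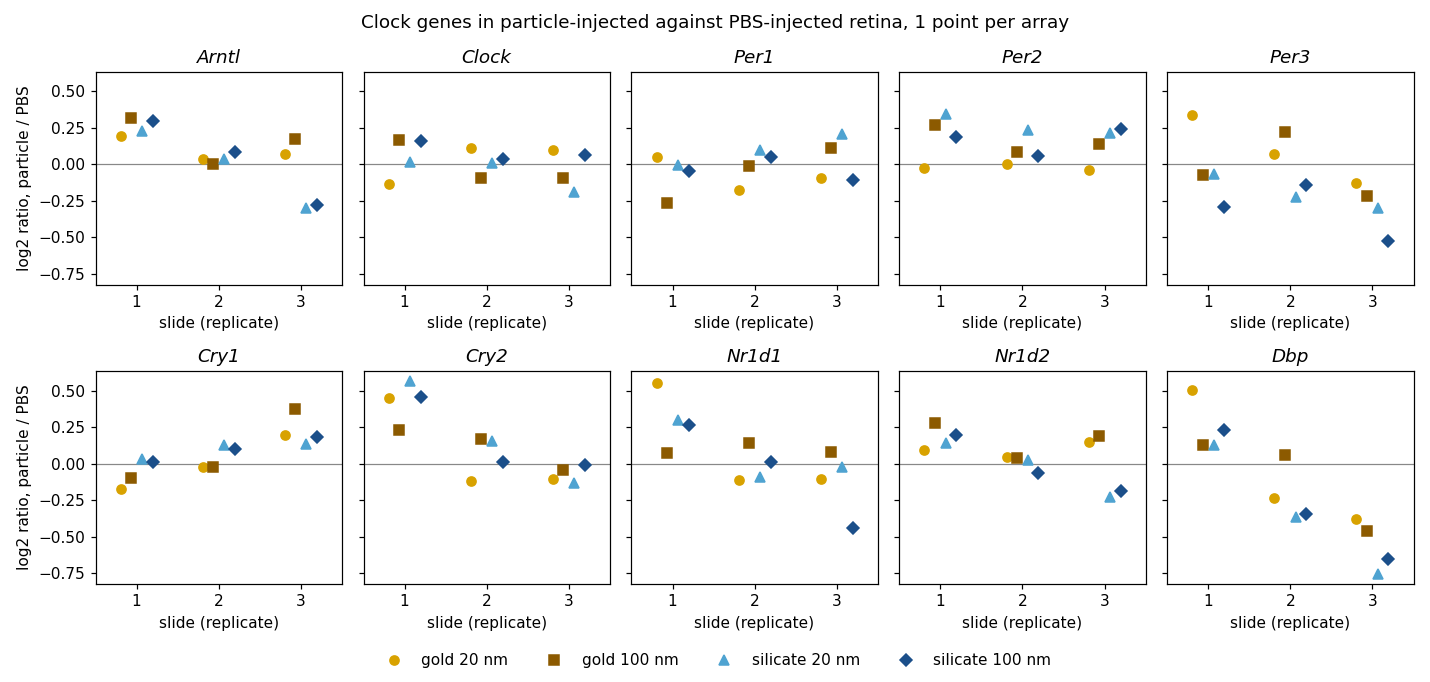
Log2 ratio of particle tube over PBS for the 10 clock genes (vertical axis) on slides 1, 2 and 3 (horizontal axis), 1 point per array, with symbols for the 4 particle groups. Points lie between -0.76 and 0.57, Per2 is above 0 on 10 of 12 arrays, and Dbp is above 0 on all arrays of slide 1 and below 0 on all arrays of slide 3. Of all genes, 31.5% were above 0 on all 4 arrays of slide 1 and 14.9% below 0 on all 4 of slide 3.

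Across the 4 particle groups, 1 of the 10 clock genes changed. Per2, a repressor of the loop, rose by 0.14 in log2 over the 4 groups together and by 0.26 with silicate 20 nm. The first count is 1 of 10 beside 14.8% of all genes called (8.43% higher), so it is near the background, and the second 1 of 10 beside 2.08% (1.58% higher). With the slide as a random block, 1.69% and 1.25% of all genes were called and no clock gene, at limma adjusted p of 0.262 and 0.0913 for Per2. With gold 20 nm, gold 100 nm and silicate 100 nm no clock gene was called, beside 0.706%, 0.977% and 0.99% of all genes. In those 3 comparisons 0, 1 and 2 of the 10 clock genes had an unadjusted p under 0.05 in limma, beside 8.79%, 12.1% and 10.8% of all genes, which is near the background. The group means of the 10 genes ran, with gold, from -0.07 to 0.11 at 20 nm and from -0.09 to 0.17 at 100 nm, and, with silicate, from -0.33 to 0.26 at 20 nm and from -0.32 to 0.16 at 100 nm. The 95% intervals of the 10 genes reached from -0.84 to 0.54 over these 4 comparisons. All 95% intervals here come from the fit without a slide term, which takes the 12 arrays as independent. The random block put the correlation between arrays of a slide at 0.49, so the intervals of means over the 4 groups are too narrow. The median over the 10 genes in the mean of the 4 groups was 0.055, and the median of all genes -0.0074.

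Promoter sequence is given for the clock genes in which a search of the 250 bases before the start site found an element of the loop, so that the elements can be set beside the values. The search covered both strands of the promoters of 9 of the 10 genes, since the RefSeq table (GRCm38.p6) holds 13 start sites for them and none for Per2. Capitals mark the matches: the E-box CACGTG in Per1 and Cry1 and the D-box TTATGTAA, present at 2 places, in Per3.
Per1, chr11:69098699-69098948, + strand: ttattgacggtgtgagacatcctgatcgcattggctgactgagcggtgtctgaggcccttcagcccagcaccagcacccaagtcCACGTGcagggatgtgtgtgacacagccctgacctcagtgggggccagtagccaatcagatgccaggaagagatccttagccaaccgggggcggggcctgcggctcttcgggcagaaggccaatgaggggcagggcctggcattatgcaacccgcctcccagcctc
Cry1, chr10:85185055-85185304, - strand: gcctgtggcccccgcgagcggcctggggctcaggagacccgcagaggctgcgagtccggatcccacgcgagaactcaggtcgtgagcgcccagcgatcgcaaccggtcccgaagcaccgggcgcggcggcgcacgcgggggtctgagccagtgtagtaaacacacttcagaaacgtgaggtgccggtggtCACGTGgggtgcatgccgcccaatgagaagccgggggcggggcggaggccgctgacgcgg
Per3, chr4:151044666-151044915, - strand: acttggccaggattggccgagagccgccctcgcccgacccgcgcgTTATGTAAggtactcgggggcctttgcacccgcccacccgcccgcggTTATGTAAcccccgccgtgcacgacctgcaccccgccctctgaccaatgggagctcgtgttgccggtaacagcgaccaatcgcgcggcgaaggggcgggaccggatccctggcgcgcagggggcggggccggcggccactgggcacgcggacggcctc
An E-box of these letters stands in 6.02% of the 32851 promoters in the table and the D-box TTATGTAA or TTACGTAA in 0.931%. The Per1 match is at the upstream one of its 2 listed starts. The letters TAGGTCA or TGGGTCA of the ROR element, through which NR1D1 acts, and the cAMP response element TGACGTCA, which stand in 5.38% and 1.55% of all promoters, were in none of the 13 windows. Elements with other letters, or outside these 250 bases, were not searched for. The search thus does not show that any of these genes, Arntl included, lacks such an element.

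Of the activators, neither Arntl nor Clock passed in any comparison. Arntl had log2 ratios of 0.19, 0.04 and 0.07 with gold 20 nm and 0.32, 0.0031 and 0.17 with gold 100 nm on slides 1, 2 and 3. In the silicate groups they were 0.23, 0.04 and -0.30 at 20 nm, then 0.30, 0.09 and -0.28 at 100 nm. It was above 0 on 10 of 12 arrays, and the exceptions were the 2 silicate arrays of slide 3, where 39.2% of all genes were below 0 on both. Its level was 12.30 to 12.45 in the particle tubes of slide 1 against 12.07 to 12.26 in PBS, and 12.36 to 12.48 against 12.35 to 12.42 on slide 2. On slide 3 it was 12.59 and 12.67 in the gold tubes and 12.13 and 12.17 in the silicate tubes, against 12.43 to 12.52 in PBS. The silicate tubes of slide 3 thus held the lowest Arntl of all 12 particle tubes. The rod markers named above were low in the same tubes and the macrophage markers high, and their part in the Arntl values was not tested. Clock, which encodes the partner of ARNTL, stayed within -0.19 to 0.17 on every array. Its mean over the 4 groups was 0.01, with a 95% interval of -0.07 to 0.10 in the fit without a slide term.

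Among the Period genes, which encode the repressors that set the timing of the loop, Per2 was the gene called. With silicate 20 nm its log2 ratios were 0.34, 0.23 and 0.21 on slides 1, 2 and 3, a mean of 0.26 ± 0.07 (SD, n = 3, limma adjusted p = 0.0491). With gold 100 nm they were 0.27, 0.09 and 0.14, with silicate 100 nm 0.19, 0.06 and 0.24, and with gold 20 nm -0.03, 0.0028 and -0.04. All 9 arrays of the other groups were above 0, and those of gold 20 nm lay between -0.04 and 0.0028. Over the 4 groups the mean was 0.14 ± 0.13 (SD, n = 12, limma adjusted p = 0.0101, higher on 10 of 12 arrays). The replicate block, a fit with a term for each slide that takes differences between slides out of the error, gave limma adjusted p of 0.0198 with silicate 20 nm and 0.00382 over the 4 groups, where it called 8.76% and 34.8% of all genes. The Per2 probe was dim, with levels of 7.86 to 8.57 in particle tubes and 7.89 to 8.49 in PBS, and without any 1 of the 3 slides neither call passed, with adjusted p of 0.247 to 0.52 for silicate 20 nm and 0.0759 to 0.14 over the 4 groups.

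Per3, a Period gene that is not needed for the core loop, was below PBS on every silicate array. Its log2 ratios with gold were 0.33, 0.07 and -0.13 at 20 nm, then -0.07, 0.22 and -0.22 at 100 nm, on slides 1, 2 and 3. With silicate they were -0.06, -0.22 and -0.30 at 20 nm, then -0.29, -0.14 and -0.53 at 100 nm. Of the 6 gold arrays 3 were above 0 and all 6 silicate arrays were below it, but no group mean passed (limma adjusted p of 0.285 for silicate 100 nm, the lowest of the 4). The share of all genes below 0 on all 6 silicate arrays was not counted, so this pattern of signs is not a result about Per3. On both silicate arrays of slide 3, 39.2% of all genes were below 0. Per1, which light induces in the central clock of the brain, kept within -0.26 and 0.21, with 5 arrays above 0 and 7 below. Its mean over the 4 groups was -0.02, with a 95% interval of -0.10 to 0.07 in the fit without a slide term.

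Of the Cryptochrome genes, which encode the partners of PER proteins, Cry2 was above PBS on all 4 arrays of slide 1. There its log2 ratios were 0.45 and 0.23 with gold at 20 and 100 nm, and 0.57 and 0.45 with silicate at 20 and 100 nm. At the same sizes, slide 2 gave -0.12 and 0.17 with gold and 0.16 and 0.0095 with silicate, and slide 3 gave -0.11 and -0.04 with gold and -0.13 and -0.0088 with silicate. Its level in the particle tubes was 13.41 to 13.68 on slide 1, against 13.05 to 13.18 in PBS, 13.47 to 13.78 on slide 2, against 13.51 to 13.63, and 13.13 to 13.26 on slide 3, against 13.19 to 13.31. Of all genes, 31.5% were above PBS on all 4 arrays of slide 1. The mean over the 4 groups was 0.14 ± 0.24 (SD, n = 12, limma adjusted p = 0.269). The replicate block called it (limma adjusted p = 0.0244), beside 34.8% of all genes. The slide means of the Cry2 ratios were 0.42, 0.05 and -0.07, and that fit takes such differences out of the error. Its p does not measure whether the slides agree. Cry1 had log2 ratios of -0.18 to 0.03 on slide 1, -0.02 to 0.13 on slide 2 and 0.13 to 0.37 on slide 3, with a mean of 0.07 ± 0.15 that did not pass (adjusted p = 0.364).

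The nuclear receptors Nr1d1 and Nr1d2, repressors of Arntl, did not pass in any comparison. Nr1d1 reached 0.55 with gold 20 nm on slide 1 and -0.44 with silicate 100 nm on slide 3, and the other 10 arrays lay between -0.11 and 0.30. Nr1d2 was above 0 on 9 of 12 arrays, with 0.04 to 0.28 on the 6 gold arrays, and -0.23 and -0.19 on the silicate arrays of slide 3. On those 2 arrays 39.2% of all genes were below 0 on both. Their means over the 4 groups were 0.05 ± 0.25 and 0.06 ± 0.15 (SD, n = 12 each).

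Dbp, a transcript by which clock output is often read, gave the widest spread of ratios. Its log2 ratios were 0.50, -0.23 and -0.38 with gold 20 nm and 0.12, 0.06 and -0.46 with gold 100 nm on slides 1, 2 and 3. In the silicate groups they were 0.13, -0.37 and -0.76 at 20 nm, then 0.23, -0.34 and -0.65 at 100 nm. All 4 arrays were above 0 on slide 1 and all 4 below 0 on slide 3. Of all genes, 31.5% showed the first and 14.9% the second. The level in the particle tubes averaged 14.89, 14.82 and 14.83 on the 3 slides, against 14.64, 15.05 and 15.39 in the PBS channels. The mean of the 4 particle tubes thus changed little from slide to slide, while the mean of the PBS channels spanned 0.75 in log2. That PBS range was wider than that of 87.3% of the genes tested. Single particle tubes ran from 14.60 to 15.14, with an SD of 0.17 to 0.20 within a slide. Within a slide the 4 PBS channels differed little, with an SD of 0.03 to 0.04, and the labels do not say whether they came from 1 tube. A further probe of Dbp gave the same picture, with particle means of 14.31, 14.31 and 14.34 against PBS means of 14.06, 14.47 and 14.77.

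The mean change of Dbp over the 4 groups was -0.18 ± 0.38 (SD, n = 12, limma adjusted p = 0.323, 5 arrays above 0 and 7 below). With silicate 20 nm it was -0.33 ± 0.44 (SD, n = 3, limma adjusted p = 0.559). The replicate block called both, at limma adjusted p of 0.0112 and 0.0433, beside 34.8% and 8.76% of all genes. It takes differences between slides out of the error, so its p does not measure whether the slides agree. The slide means of the Dbp ratios were 0.25, -0.22 and -0.56. The random block called neither, at limma adjusted p of 0.637 and 0.42. The PBS channels of slide 1, where Dbp was lowest, had the highest macrophage markers of the 12 PBS channels, at 17.48 to 17.58, and the highest sum of the 4 neutrophil markers tested, of 5 listed, at 18.43 to 18.54. The log2 of the summed intensities of the rod markers was lowest in PBS on the same slide, with 20.31 to 20.53 in the particle tubes against 19.70 to 19.79 in PBS. On slide 2 it was 20.38 to 20.44 against 20.16 to 20.19. On slide 3, where Dbp in PBS was highest, it was 20.45 and 20.51 in the gold tubes against 20.05 and 20.09 in PBS on those arrays, and 19.69 and 19.76 in the silicate tubes against 20.48 and 20.52. The part of these markers in the Dbp values was not tested.

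**Figure D2:**
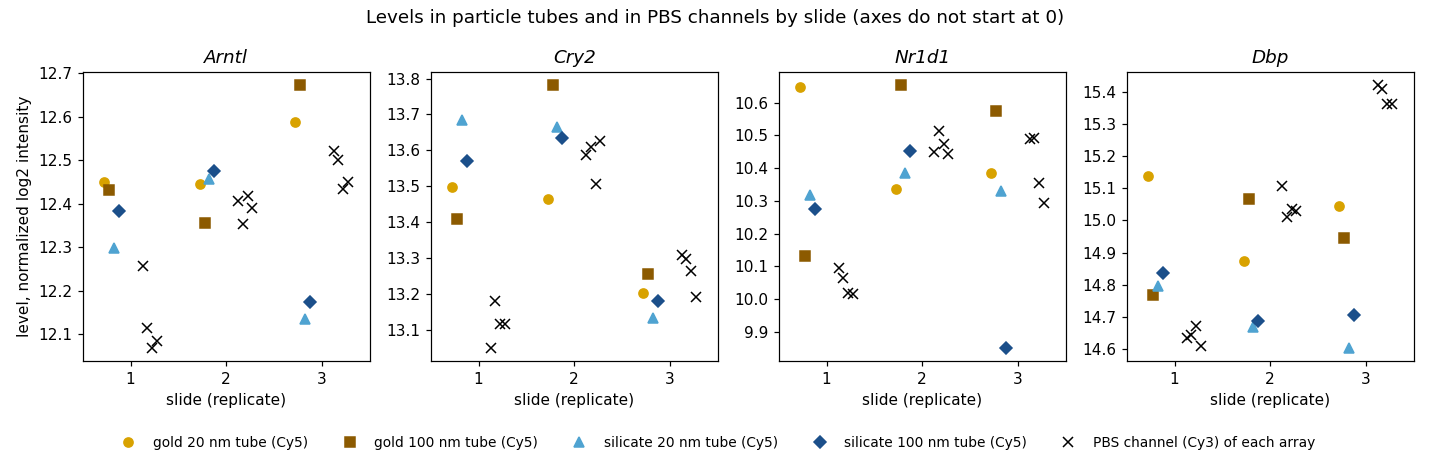
Normalized log2 intensity (vertical axis) of Arntl, Cry2, Nr1d1 and Dbp on slides 1, 2 and 3 (horizontal axis), with the 4 particle tubes of a slide on the left as coloured symbols and the 4 PBS channels on the right as crosses. The PBS crosses of Dbp stand at 14.64, 15.05 and 15.39 on average, and the slide means of its particle tubes at 14.82 to 14.89. Single particle tubes of Dbp run from 14.60 to 15.14.

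The range of the PBS level between slides was 0.13 for Per3, 0.23 for Clock, 0.34 for Per1 and for Arntl, 0.35 for Cry1 and for Nr1d2, 0.42 for Per2 and Nr1d1, and 0.47 for Cry2, against a median of 0.31 over all genes. Apart from Dbp, these ranges lay between the percentiles 14.1 and 70.4 of all genes. The PBS level was lowest on slide 1 for Arntl, Clock, Per2, Per3, Cry2, Nr1d1, Nr1d2 and Dbp, with slides 1 and 3 of Per3 both at 8.62, and lowest on slide 3 for Per1 and Cry1. The share of all genes lowest in PBS on slide 1 was not counted, so this order is not a result about clock genes. Arntl and Dbp were both lowest in PBS on slide 1 and both highest on slide 3. The labels do not tie PBS tubes to arrays.

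The materials were compared next, where the PBS side cancels as far as the arrays of a slide share it. On slide 3 the neutrophil markers of the PBS channels differed between the arrays, at 10.75 and 10.76 on the gold arrays and 14.61 and 13.73 on the silicate arrays. No clock gene passed, nor did any gene of the table in limma without a slide term (0% called). In that fit 1206 genes, 5.19% of all, had an unadjusted p under 0.05. It leaves differences between slides in the error, although gold and silicate share each slide. The replicate block, which takes them out, also called 0%, and the random block called some genes but no clock gene. Per3 was higher with gold than with silicate by 0.29 in log2 (95% interval 0.05 to 0.54, limma adjusted p = 0.881, and 0.201 with the random block), and by 0.31, 0.33 and 0.24 on slides 1, 2 and 3. Per2 was lower with gold by similar amounts on each slide, at -0.14, -0.10 and -0.18 (mean -0.14, 95% interval -0.27 to -0.01, adjusted p = 0.881). These were the 2 clock genes with an unadjusted p under 0.05. Dbp had differences of 0.14, 0.26 and 0.29 and a mean of 0.23 (95% interval -0.28 to 0.74). In all, gold lay above silicate on all 3 slides for 4 genes, Per3, Nr1d1, Nr1d2 and Dbp, and below it on all 3 for Per1, Per2 and Cry2, against 16% and 19.1% of all genes. For Arntl and Nr1d2 the gap came mainly from slide 3, with 0.41 and 0.38 there, against -0.0078 and 0.02 on slide 1 and -0.04 and 0.06 on slide 2.

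**Figure D3:**
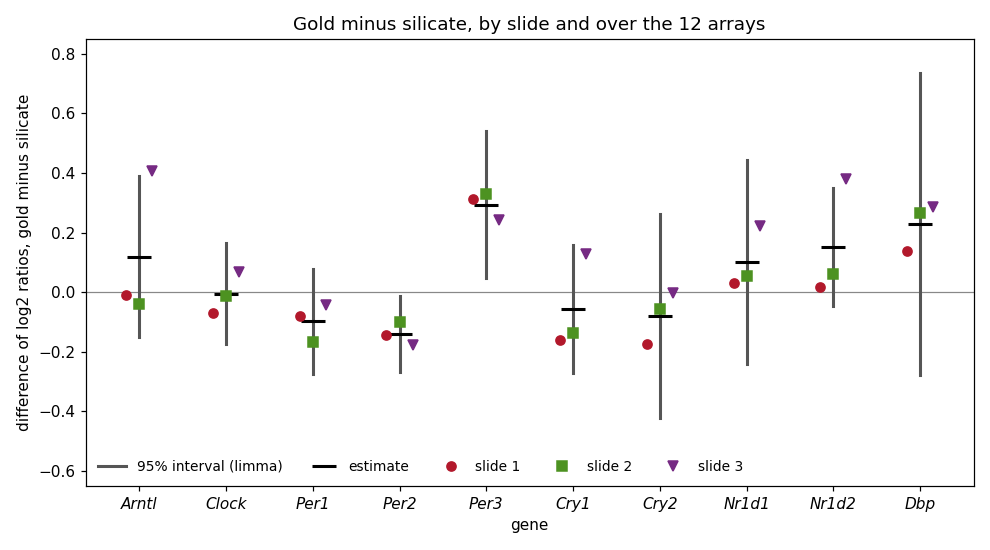
Difference of log2 ratios, gold minus silicate (vertical axis), for the 10 clock genes (horizontal axis), with 1 symbol per slide, the estimate over the 12 arrays as a dash and its 95% interval as a line. The intervals come from the fit without a slide term. The intervals of Per3 (0.05 to 0.54) and Per2 (-0.27 to -0.01) do not include 0 before adjustment, and the slide 3 values of Arntl and Nr1d2 stand apart from those of slides 1 and 2.

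Particle size made no difference that passed. For 100 nm against 20 nm the differences of the 10 genes lay between -0.12 and 0.06, with 95% intervals within -0.50 and 0.51. No clock gene had an unadjusted p under 0.05 in limma, beside 230 genes of the table, 0.99% of all, so this is near the background. The fit leaves differences between slides in the error, although both sizes share each slide. The size effect (100 nm minus 20 nm) of gold minus that of silicate lay between -0.18 and 0.29. Its highest value was that of Per2, with group means of 0.17 at 100 nm and -0.02 at 20 nm in gold, and 0.16 at 100 nm and 0.26 at 20 nm in silicate, at an unadjusted p of 0.0295 in limma (adjusted p = 1). Of all genes, 142 (0.611%) had an unadjusted p under 0.05 in limma in that comparison. The table held 0 called genes in both comparisons, also with the random block and the replicate block.

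Beyond the core loop, 35 of 37 listed clock-related genes were tested, and 1 rose, beside 14.8% of all genes called (8.43% higher) in the mean of the 4 groups. This was Csnk1d, the casein kinase that phosphorylates PER proteins, with a log2 ratio of 0.23 (limma adjusted p = 0.00897) over the 4 groups together and 11 of 12 arrays above 0. The random block put it at an adjusted p of 0.18. A further, dimmer probe of Csnk1d read -0.09 (adjusted p = 0.208 over all probes), with 3 of 12 arrays above 0. The 2 probes of the gene disagreed. Without a slide term no listed gene was called in any single group or between materials or sizes. The replicate block called Wee1 and Opn4 with gold 100 nm, Hlf, Csnk1d, Sik1 and Adcy1 with silicate 20 nm, and Adcy1 with silicate 100 nm, beside 6.71%, 8.76% and 4.03% of all genes. Over the 4 groups the replicate block called 12 of the 35, beside 34.8% of all genes, and the random block none.

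By family, the kinases, ubiquitin ligases and partners of the loop had a median of 0.0057 over 11 genes, with 0.27 for Btrc, a ligase subunit that marks PER for degradation. The activators and nuclear receptors had a median of 0.09 over 4 genes, with 0.19 for Rorb, a retinal receptor. Among 6 PAR bZIP genes and repressors, whose median was -0.03, Hlf, a relative of Dbp, read 0.22 and Bhlhe40 -0.25. Other rhythmic outputs had a median of -0.0019 over 8 genes and genes of light input and retinal rhythm one of 0.06 over 6 genes, with 0.14 for Adcyap1, a neuropeptide gene, 0.13 for the melanopsin gene Opn4 and -0.19 for the adenylyl cyclase gene Adcy1. These genes were picked at or near the ends of their families after their values were seen, and none of them passed. Of them, Btrc, Hlf, Bhlhe40, Opn4, Adcyap1 and Adcy1 were called with the replicate block, at limma adjusted p of 0.00267 to 0.0341. That fit called 34.8% of all genes and 12 of the 35 listed ones. Since these genes were picked by their values in the same comparison, their calls are not a test of them.

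**Figure D4:**
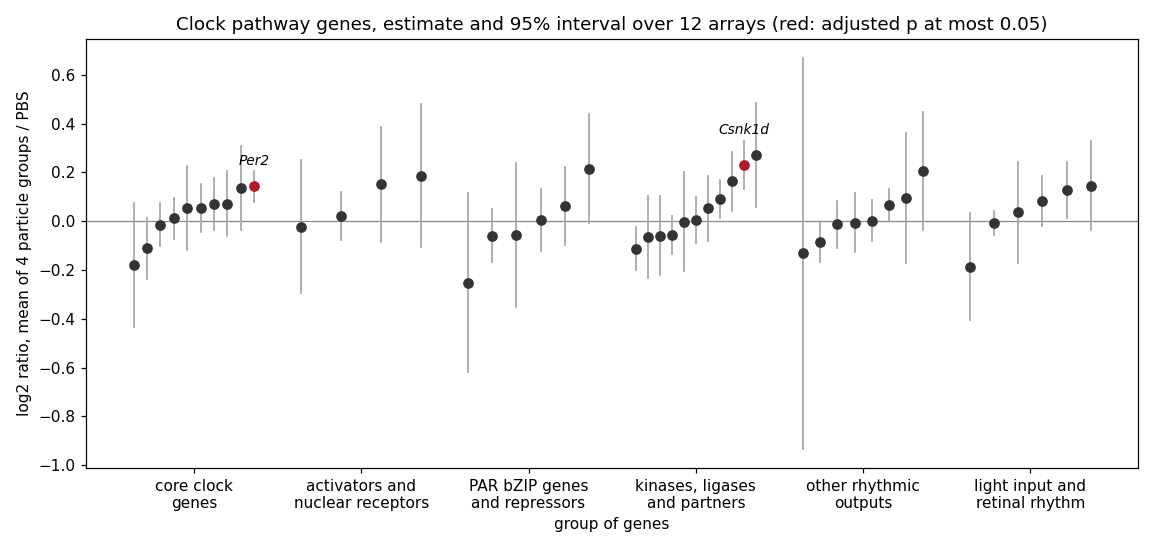
Log2 ratio of the mean of the 4 particle groups over PBS (vertical axis) for the 10 core genes and 35 further clock-related genes in 5 families (horizontal axis), each with its 95% interval over 12 arrays. The intervals come from the fit without a slide term, which takes the arrays as independent. Per2 at 0.14 and Csnk1d at 0.23, in red, passed the threshold without a slide term.

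Within slides, the SD of the level in particle tubes was 0.11 for Cry2, the lowest of the 10, and 0.25 for Per3 and Nr1d1, the highest, against a median of 0.17 over all genes. Across the 12 tubes, each set against its slide mean, Arntl went with Nr1d2 at a Pearson correlation of 0.923 and Per3 with Dbp at 0.809 and with Nr1d1 at 0.801, while Per1 and Clock stood at -0.681. These values describe 12 tubes that share slides. The pairs named are the highest and the lowest of all pairs among the 10 genes, so they were picked by their values. Without the 2 silicate tubes of slide 3, Arntl and Nr1d2 stood at 0.385, Per3 and Dbp at 0.785, Per3 and Nr1d1 at 0.675, and Per1 and Clock at -0.671. Cry1 and Arntl stood at 0.247, against 0.789 over all 12 tubes, and the pair of largest size became Clock and Nr1d1, at -0.91 against -0.336. Over all 12 tubes, and among 15565 other genes with a symbol, those whose tube levels were most like Arntl were Smug1, Xiap, Ppp3cc, Elmod3 and Gnat2, at 0.992 to 0.988, and Gnat2 is the cone transducin gene. Those most like Nr1d1 were St8sia2, Ccar2, CK137956, Fbxo21 and Mmd2, at 0.952 to 0.936. Neither list was recomputed without the 2 silicate tubes of slide 3. The SD of Arntl among particle tubes was 0.28 on slide 3, against 0.07 and 0.05 on slides 1 and 2.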

How the data were processed

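Per the file headers, Agilent Feature Extraction 11.0.1.1 made the deposited spot intensity values. Version 9.3.2.1 stands in the submitters' processing notes. Median intensity and local background entered normexp (offset 50), then loess within each array, in which the 1377 control spots had no weight. Outlier spots, 149 to 257 per array, were left out, no spot was saturated, and spots of a probe were averaged. Levels are those of single channels after Aquantile scaling. Number of arrays limits the precision. The deposited value table holds log2 ratios made by the authors. Its scale was checked against the deposited log10 ratio of each array, with slopes of 3.30 to 3.32 and column medians of 0.016 to 0.11. How it was centred is not given in the sources used here.

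Probes were named by RefSeq accession (GRCm38.p6 table, names only, since arrays were annotated on mm9), and 6279 of 32334 had no match. A probe was kept when well above background in a channel on all 3 arrays of a group, 28460 in all, and the brightest stood for its gene. Ratios were tested with limma 3.58.1 (lmFit, eBayes) in R 4.3.3, two-sided, with Benjamini-Hochberg adjustment over 23237 genes at 0.05. The fit was checked on simulated data, with pass conditions set only for data without a slide effect. That check does not cover calls from arrays that share slides, as these do. PBS was in Cy3 on every array, so a dye effect is part of each ratio. Deviations from group means correlated between arrays of a slide at 0.0812 to 0.934, and the headers show the shared slide, so replicate numbers pair arrays. Tubes are the replicates. The members, lists and tests were chosen with earlier results of these data known. Named genes were all members, listed pathway genes that were called, extremes of each family chosen after their values were seen, and the 5 genes most like Nr1d1 and Arntl.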

Additional observations from a re-analysis of the deposited data

How the results depend on the processing

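The counts of clock genes called were recomputed under 11 alternatives. With gold 20 nm, gold 100 nm and silicate 100 nm, and between materials and sizes, 0 clock genes were called under each, the replicate block included. With silicate 20 nm the count of 1 became 0 with the slide as a random block, processed signals, median centring, no filter on dim probes, the deposited value table, each probe on its own, and without both silicate arrays of slide 3, and 2 with the replicate block (Per2 and Dbp). Per2 read 0.22 to 0.30 in log2 under these settings, with adjusted p of 0.0527 to 0.552 where it was lost. Leaving out a replicate gave 0 to 0. In the mean of the 4 groups the count of 1 became 0 with the random block and processed signals and 3 with the replicate block (Per2, Cry2 and Dbp), and leaving out a replicate gave 0 to 0. The cause was not tested. No clock gene called under any of these settings turned its direction. Quantile normalization of all 24 channels lowered PBS levels on slide 1, for Dbp to 14.56 from 14.64. Of all genes, 14.8% were called in the mean comparison and 1.69% with the random block, 9.41% with processed signals, 34.8% with the replicate block, and 1.15% to 9.09% without a replicate. With silicate 20 nm, 2.08% became 1.25% with the random block, 8.76% with the replicate block, 1.03% to 1.38% with processed signals, no filter and the value table, 0.955% without both silicate arrays of slide 3, and 0.0344% to 0.757% without a replicate. In the other groups the replicate block called 4.03% to 6.71%, median centring 1.5% to 2.1%, and leaving out a replicate 0.0172% to 0.224%. Gold 100 nm without the filter gave 0.643%, silicate 100 nm without slide 3 silicate 0.555%, and gold against silicate 0.0646% with the random block and 0.0043% without slide 3 silicate. The Per2 probe was dim, which limits what small changes can be seen.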
